A study of Bos taurus with 31 samples.

Results

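Tubulins are the building blocks of microtubules. An alpha and a beta tubulin form a pair, pairs join end to end into the microtubule wall, and mammals carry several genes, called isotypes, for each of the 2 chains. In hepatocytes, microtubules carry vesicles with lipoproteins and plasma proteins to the sinusoidal surface and bring transporters to the bile canaliculus. Isotypes differ mostly in their C-terminal tails, to which enzymes add or from which they remove residues, and in the tissues that express them. TUBB4A and TUBB3 are best known from the nervous system, TUBB4B and TUBA1C from many tissues, and TUBA4A from muscle, brain and platelets.

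The 8 genes described here were the rows of the deposited count table that carried the symbols TUBB4A, TUBB4B, TUBB2A, TUBB2B, TUBB3, TUBB6, TUBA4A and TUBA1C. They were 8 of 24616 genes in the table, and all 8 were among the 15916 genes that had at least 20 reads summed over all cows and were therefore tested. The list was chosen by measured values, since it was built around TUBB4A, which the study had reported from the comparison of CON_HC with CON_LC. Values of the members in that comparison are therefore given as a description and without a test, and the same holds for every contrast of TUBB4A that includes control cows. The comparison of GLY_HC with GLY_LC uses none of the cows from which TUBB4A was chosen, and it was tested for all members. Its normalization and its estimate of spread are shared with the control cows. The study had reported HNRNPH3 alone as lower in both HC groups, so it had not called TUBB4A in this comparison. The result for TUBB4A was therefore partly known beforehand.

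The livers came from 31 lactating German Holstein cows, which had been fed 1 of 4 rations for 16 weeks before a puncture biopsy. GLY groups received a ration with feed from crops treated with glyphosate, a herbicide, and CON groups a ration without this treatment. Within both treatments concentrate made up 60% of dry matter in the HC groups or 30% in the LC groups. Sequencing data were available for 8 cows in CON_HC, 8 in CON_LC, 8 in GLY_HC and 7 in GLY_LC. Each cow gave 1 library from 1 biopsy, so that a value holds the cow, the piece of liver and the library together. A biopsy is a mixture of cell types, in which fewer cells of a type and less RNA per cell cannot be told apart.

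Libraries held 11675775 to 36675542 reads assigned to genes. All 10 hepatocyte markers were measured. Their summed TMM-normalized counts (scaled by library size and a TMM factor for composition) were between 2222190 and 4471250 per cow. Some libraries stood apart in markers of other cell types. Cow 912 of GLY_LC had the lowest hepatocyte sum, the highest sum of the 5 smooth muscle markers with 33738 counts against at most 8397 in the other cows, and the highest sum of the 6 measured intestinal epithelium markers with 11720 counts against at most 8228. In CON_LC, cow 103 had 45193 counts of stellate cell and fibroblast markers against at most 9746 in the other cows, cow 166 had the second highest sums of both smooth muscle (8397) and fibroblast markers (9746), and cow 941 had 704 counts of neuron and Schwann cell markers against at most 225.9 in the others. Summed endothelium markers ranged from 5801 to 10064, macrophage markers from 11988 to 26066, lymphocyte markers from 315.5 to 1217, bile duct markers from 418.6 to 1386, platelet and red cell markers from 127.0 to 418.6 and epidermis markers from 7.55 to 190.5. The 3 cows with the highest epidermis sums were GLY_HC cows 154 (190.5), 32 (133.9) and 117 (101.1), against at most 32.1 in the other cows. Between GLY_HC and GLY_LC, edgeR called 3 of 5 smooth muscle, 3 of 6 intestinal epithelium and 1 of 8 fibroblast markers lower and 1 of 5 epidermis markers higher in GLY_HC, and 0 of all genes without cow 912. Between GLY_LC and CON_LC, 2 of 6 intestinal epithelium markers were called higher in GLY_LC, and 0 of all genes without cow 912. Results that rest on these cows are given below with and without them.

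TUBB4A (ENSBTAG00000021013) held most of the beta tubulin reads in nearly every liver. Of the reads of the 8 beta tubulin genes in the table, it took between 46.6% and 73.9% per cow, with a mean of 63.7% ± 6.75 (SD, n = 31). TUBB followed with 18.3% ± 3.73, TUBB4B with 13.1% ± 4.20 and TUBB6 with 2.66% ± 0.86, whereas TUBB2A (1.11% ± 0.39), TUBB2B (0.91% ± 0.33), TUBB1 (0.12% ± 0.08) and TUBB3 (0.03% ± 0.04) were minor. Among the alpha tubulins, TUBA1B took 50.6% ± 5.38 of the reads, TUBA1C 18.2% ± 3.74, TUBA4A 10.1% ± 4.77 and TUBA8 9.79% ± 2.42. These are shares of reads. Transcript lengths were not at hand, and a longer transcript gives more reads at the same level, so no order of isotype levels is drawn from them. The authors also counted only uniquely mapped reads, so reads from stretches that tubulin genes have in common may be missing from these shares.

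**Figure D1:**
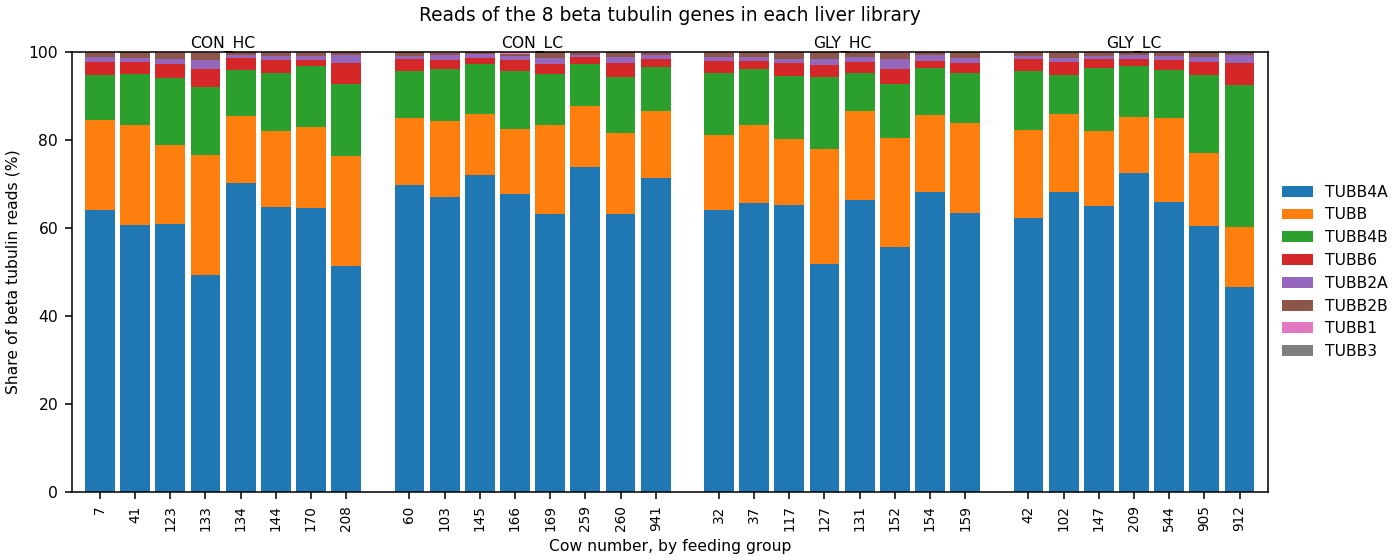
Share of reads in percent (vertical axis) that each of the 8 beta tubulin genes took in each of the 31 libraries, with 1 bar per cow ordered by feeding group and cow number. TUBB4A, the lowest segment, spans 46.6% to 73.9%, with the smallest share in GLY_LC cow 912, where TUBB4B takes 32.2%.

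The share of TUBB4A was 60.7% ± 7.07 in CON_HC, 68.5% ± 4.03 in CON_LC, 62.5% ± 5.72 in GLY_HC and 63.0% ± 8.24 in GLY_LC (SD, n = 8, 8, 8 and 7). The ranges of the 4 groups overlapped, with lowest shares of 49.4% in CON_HC, 63.1% in CON_LC, 51.9% in GLY_HC and 46.6% in GLY_LC. The summed counts of the other 7 beta tubulins were 1472 ± 286 in CON_HC, 1619 ± 405 in CON_LC, 1556 ± 228 in GLY_HC and 1589 ± 596 in GLY_LC. Because TUBB4A was chosen for a difference between CON_HC and CON_LC, its spread of group means is not compared with theirs. Over all cows, 2.09 ± 0.37 beta tubulin reads were counted per alpha tubulin read.

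TUBB4A was lowest in CON_HC and highest in CON_LC. In CON_HC, the lowest, median and highest of the 8 cows were 1558, 2383 and 2777 normalized counts, and in CON_LC they were 2287, 3542 and 4966. The GLY groups lay between these, with 1625, 2693 and 3426 in GLY_HC and 1782, 2420 and 4486 in GLY_LC. Every pair of groups overlapped, and the group means were 2286 ± 353, 3540 ± 908, 2651 ± 599 and 2701 ± 890 (SD). As a description, the log2 fold change of CON_HC versus CON_LC was -0.63 (standard error, SE, 0.17). In that comparison 0.0% of all genes tested were called in the edgeR model (p under 0.05 and adjusted p under 0.1), and the groups did not overlap for 0.0188% of genes. With cow 912 of GLY_LC and cows 103, 166 and 941 of CON_LC left out together, a choice made after seeing the data, the value was -0.60 (SE 0.19).

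**Figure D2:**
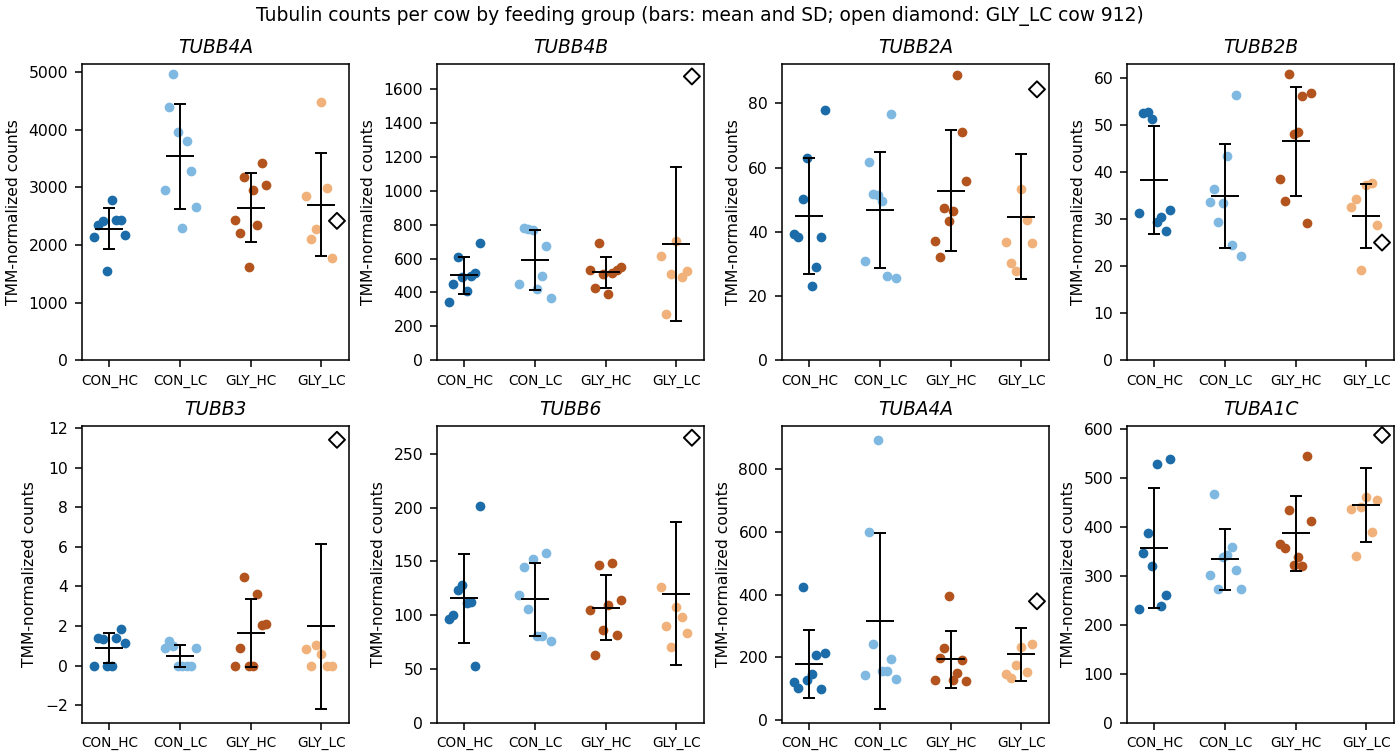
TMM-normalized counts (vertical axes, a separate linear scale for each gene) of the 8 tubulins in every cow by feeding group, with the mean and SD of each group as bars and GLY_LC cow 912 as an open diamond. TUBB4A is highest in CON_LC with overlap between all groups, and cow 912 is the highest of all 31 cows for TUBB4B, TUBB3, TUBB6 and TUBA1C.

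Between GLY_HC and GLY_LC, the effect of the concentrate feed proportion among glyphosate-fed cows, TUBB4A gave a log2 fold change of -0.03 (SE 0.18, adjusted p = 0.972 by the quasi-likelihood test of edgeR, Benjamini-Hochberg adjusted over all genes tested). The 95% interval of the difference was -0.37 to 0.32 on the log2 scale. The interaction of treatment and concentrate was 0.60 (SE 0.25) and is given without a test because it contains the control cows. Over all cows with treatment as a covariate, the log2 fold change of HC versus LC was -0.34, likewise a description. Glyphosate and control cows differed in TUBB4A by 0.21 (SE 0.17) in HC and by -0.39 (SE 0.18) in LC on the log2 scale, again without a test.

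None of the 8 members was called between GLY_HC and GLY_LC, where 0.201% of all genes tested were. At an unadjusted p under 0.05, 1 member of 8 was found, TUBB2B, and 12.5% of all genes tested had such a p. DESeq2, on all cows or on the 2 groups alone, also called 0 of 8, beside 143 of 15916 and 89 of 15915 genes. It gave TUBB2B alone an unadjusted p under 0.05, beside 1921 and 1539 of all genes. The groups overlapped for all 8 members, while they did not for 0.0942% of all genes, and they overlapped for the members in both glyphosate comparisons too, where 0.00628% of genes in HC and 0.00628% in LC did not. The median log2 fold change of the 7 members other than TUBB3 was -0.11, with 2 above and 5 below 0, beside -0.01 over all genes. Without cow 912 this median was 0.10, with 4 above 0. With GLY_HC cows 154, 32 and 117 left out together, a choice made after seeing the data, 0 of 8 members and 0 of all genes were called. TUBB2B was then at 0.65, TUBB4A at -0.16 and TUBA1C at -0.35.

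TUBB2B (ENSBTAG00000004093), a beta tubulin of developing neurons, had few reads in liver, between 15 and 79 per cow. In GLY_HC the lowest, median and highest values were 29.2, 48.4 and 60.9 normalized counts, and in GLY_LC they were 19.3, 32.6 and 37.8. Of the 8 GLY_HC cows, 6 lay above every GLY_LC cow, but the groups overlapped. The log2 fold change was 0.58 (SE 0.21, adjusted p = 0.246 by edgeR), with a 95% interval of 0.18 to 0.99, and it was 0.53 without cow 912 (adjusted p = 0.527). In the control groups the means were 38.4 ± 11.5 in CON_HC and 35.0 ± 11.0 in CON_LC. The difference between treatments was 0.27 in HC (adjusted p = 1.0) and -0.19 in LC (adjusted p = 1.0 by edgeR).

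TUBB2A (ENSBTAG00000046886), the neighbour of TUBB2B in the cattle genome by RefSeq's gene order (assembly ARS-UCD2.0), was also low, with 15 to 111 reads per cow. Its group means were 44.9 ± 18 in CON_HC, 46.8 ± 18.1 in CON_LC, 52.8 ± 18.8 in GLY_HC and 44.7 ± 19.5 in GLY_LC. These means differed by less than the spread between cows, and the log2 fold change of GLY_HC versus GLY_LC was 0.22 (SE 0.27, adjusted p = 0.790 by edgeR) with all cows and 0.45 (adjusted p = 0.677) without cow 912. The coding sequences of TUBB2A and TUBB2B are nearly the same, and the authors counted only uniquely mapped reads, so the division of reads between these genes is uncertain.

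TUBB4B (ENSBTAG00000025274), a beta tubulin of many tissues and of cilia, showed how much 1 library could carry. In GLY_LC, cow 912 had 1673 normalized counts, whereas the other 6 cows had between 275.1 and 704.8, a ratio of 3.24 to their median. The other groups spanned 342.7 to 690.1 in CON_HC, 368.1 to 779.2 in CON_LC and 389.0 to 692.7 in GLY_HC. The log2 fold change of GLY_HC versus GLY_LC was -0.40 (SE 0.24, adjusted p = 0.509 by edgeR), and it was -0.01 without cow 912. In GLY_LC versus CON_LC the value moved from 0.21 to -0.18 when this cow was left out. Its smooth muscle and intestinal epithelium markers were the highest of all cows, and their part in this value was not tested.

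Cow 912 also held the highest TUBB6 of all 31 cows (265 normalized counts, against 70.6 to 126 in the other GLY_LC cows), the highest TUBA1C (588) and TUBA1B (1597), and the second highest TUBB2A (84.4). It ranked only 19th for TUBB4A (2420 counts, 0.94 times the median of the other GLY_LC cows) and 28th for TUBB2B (25.1 counts). TUBB4A and TUBB2B thus did not stand out in this cow. TUBB6 (ENSBTAG00000046337), a widely expressed beta tubulin, otherwise spanned 53.1 to 201 counts, and its log2 fold change of GLY_HC versus GLY_LC was -0.19 (SE 0.25, adjusted p = 0.814 by edgeR) with cow 912 and 0.13 without it.

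TUBB3 (ENSBTAG00000023730), the neuronal beta tubulin, was close to absent. It had 38 reads over all 31 libraries, 0 in 13 of them, and 15 in cow 912. In the other cows it had at most 3 reads, a number that corresponds to the upper limit that a count of 0 allows, so no fold change is read from it. Cow 941, with the highest sum of neuron and Schwann cell markers, had 1 read of TUBB3.

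TUBA4A (ENSBTAG00000030974) is an alpha tubulin whose gene lacks the code for the C-terminal tyrosine that most other alpha tubulins carry. It varied most among the members with more than a few reads. It ranged from 98.9 to 893 normalized counts, a 9.03-fold span, and the coefficient of variation over all cows was 73.6% against 29.6% for TUBB4A. The lowest, median and highest values were 98.9, 136 and 425 in CON_HC, 131, 177 and 893 in CON_LC, 124, 171 and 395 in GLY_HC and 135, 175 and 378 in GLY_LC. The medians lay close together and single cows set the top of each group. The highest were cow 166 of CON_LC (893), cow 103 of CON_LC (600), cow 123 of CON_HC (425), cow 127 of GLY_HC (395) and cow 912 of GLY_LC (378). Of these 5 cows, 4 were also among the 5 with the highest sum of smooth muscle markers, while 5 of the highest 10 were shared. The part of smooth muscle in these values was not tested.

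In CON_HC versus CON_LC, TUBA4A had a log2 fold change of -0.81 (SE 0.38), as a description. It was -0.0015 (SE 0.30) when cows 912, 103, 166 and 941 were left out together. In GLY_HC versus GLY_LC it was -0.11 (SE 0.39, adjusted p = 0.942 by edgeR), and in GLY_LC versus CON_LC -0.59 (SE 0.39, adjusted p = 0.960) with all cows and 0.02 without the 4 cows. TUBA8 and TUBA1D, a pair of further alpha tubulins, were likewise highest in cow 166 with 420 and 124 normalized counts, which is 2.35 and 4.70 times the median of the other CON_LC cows. RefSeq places TUBA1D next to TUBA4A.

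TUBA1C (ENSBTAG00000039992), an alpha tubulin of many tissues, gave the other unadjusted p under 0.05. In GLY_LC the lowest, median and highest values were 341, 441 and 588 normalized counts, and in CON_LC they were 273, 326 and 467. Of the 7 GLY_LC cows, 6 lay above all CON_LC cows but 1, and the groups overlapped. The log2 fold change was 0.42 (SE 0.16, adjusted p = 0.748 by edgeR), with a 95% interval of 0.10 to 0.74, and 0.34 without cow 912. In this comparison 3 of 5 smooth muscle and 4 of 6 intestinal epithelium markers had an unadjusted p under 0.05, all higher in GLY_LC, and their part in the value was not tested. In HC the difference between treatments was 0.12 (adjusted p = 1.0 by edgeR). GLY_HC versus GLY_LC gave -0.20 (SE 0.16, adjusted p = 0.655).

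Among the 7 members tested for glyphosate, 0 were called by edgeR in LC, where 0.0628% of all genes were called, and 1 of 7, TUBA1C, had an unadjusted p under 0.05, beside 5.65% of all genes. In HC, 0 of 7 were called, as was 0.0% of all genes, and 0 of 7 had an unadjusted p under 0.05 beside 2.92% of all genes. DESeq2 gave the same counts of members in both. On all cows and on the 2 groups alone, it called 4 and 2 of all genes in LC and 0 and 3 in HC. The log2 fold changes of the 7 members other than TUBB3 were between -0.13 and 0.27 in HC and between -0.59 and 0.42 in LC.

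**Figure D3:**
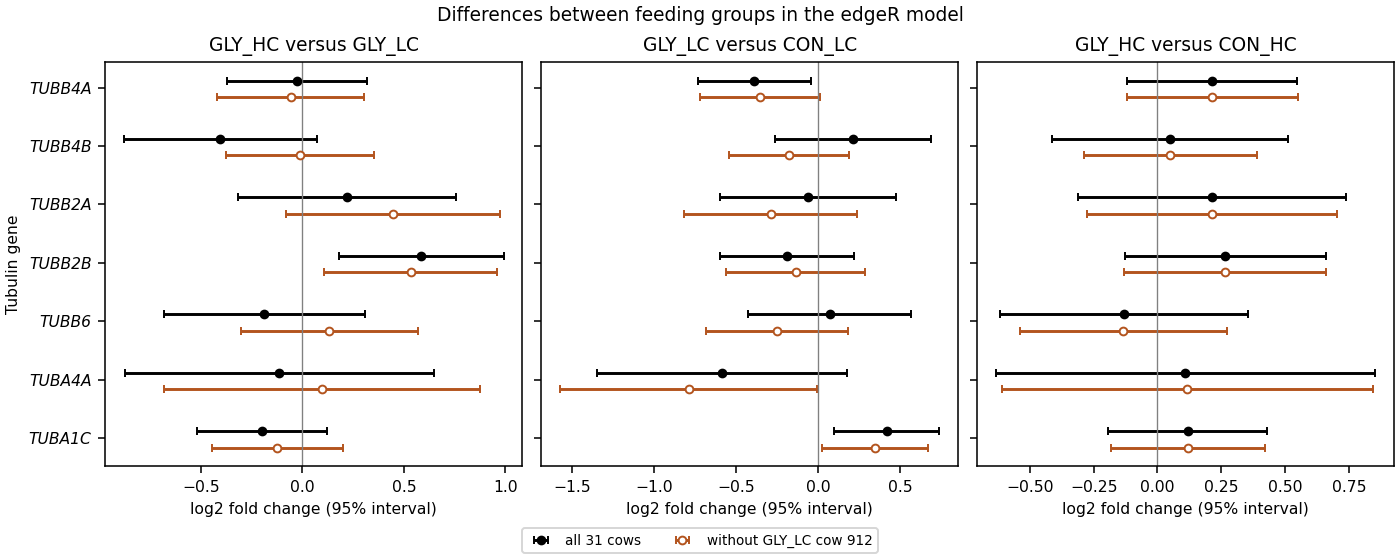
Log2 fold changes (horizontal axes) with 95% intervals of 7 tubulins in GLY_HC versus GLY_LC, GLY_LC versus CON_LC and GLY_HC versus CON_HC, with all 31 cows (filled) and without GLY_LC cow 912 (open); TUBB3 is left out, and TUBB4A is a description in the centre and right panels. TUBB2B in the left panel and TUBA1C in the centre panel have intervals above 0 with and without this cow, and TUBB4B moves from -0.40 to -0.01 in the left panel.

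To see which tubulins varied together, log2 CPM values were correlated over the 31 cows after the group mean was subtracted. CPM are counts scaled by library size and the TMM factor. Of 28 pairs, 26 had a positive Spearman coefficient, and 10 had an adjusted p under 0.05 (permutation test, 100000 resamples, Benjamini-Hochberg over 28 pairs). No counts for pairs of other genes stand beside these, so they are not read as a trait of tubulins. TUBB2A, TUBB4B and TUBB6 varied together. TUBB2A and TUBB6 had r = 0.67 and rho = 0.64 (adjusted permutation p = 0.00028 and 0.00215), and r was 0.53 without the 2 cows farthest from the median. For TUBB4B and TUBB2A the values were r = 0.65 and rho = 0.64 (adjusted permutation p = 0.00056 and 0.00215), with r = 0.59 without the 2 cows. TUBB4B and TUBA4A had r = 0.60 and rho = 0.61 (adjusted permutation p = 0.00207 and 0.00215), with r = 0.62 without the 2 cows. All values of a cow share its library and its mixture of cell types, and without cow 912 these coefficients r were 0.60, 0.58 and 0.59.

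TUBB4A had lower coefficients than these pairs. Its highest coefficient with another member was that with TUBB4B, at r = 0.35 and rho = 0.48 (adjusted permutation p = 0.106 and 0.0256), with r = 0.37 without the 2 farthest cows. With TUBB2B it was near 0 (r = -0.02 and rho = -0.0020, adjusted permutation p = 0.918 and 0.992). Low coefficients were not particular to TUBB4A. TUBB2B reached rho = 0.49 with TUBB6 and 0.47 with TUBB2A, and at most 0.16 with the other members.

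**Figure D4:**
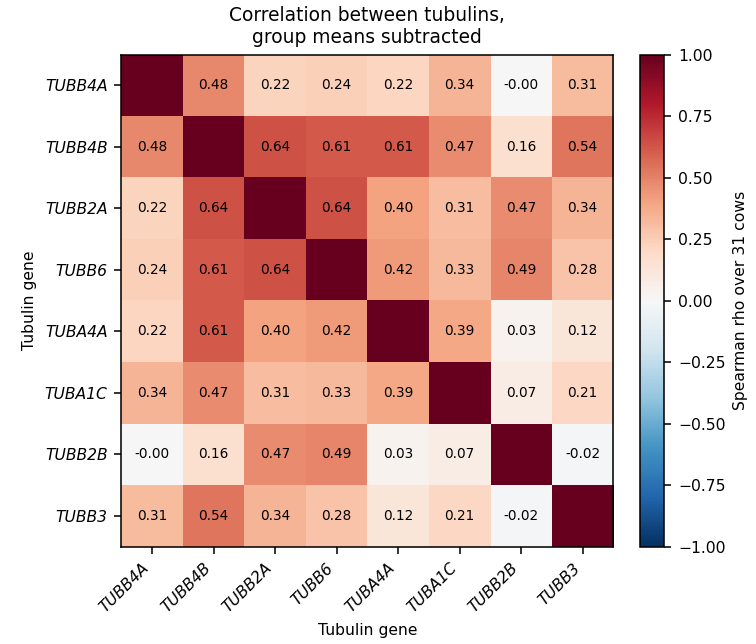
Spearman coefficients (colour scale and printed values) between the 8 tubulins over 31 cows after subtraction of the group means. TUBB4B, TUBB2A and TUBB6 share coefficients of 0.61 to 0.64, whereas TUBB4A reaches 0.48 with TUBB4B and stays at or below 0.34 with the others. TUBB2B likewise reaches at most 0.49.

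The genes most like TUBB4A over the 31 cows were no tubulins. Unlike the coefficients above, those of this ranking were taken without subtraction of the group means, so they also hold differences between feeding groups. Among 10602 genes with a mean of at least 1 log2 CPM, LOXL4, a lysyl oxidase of the extracellular matrix, had the highest Spearman coefficient (rho = 0.78, r = 0.77), followed by BLVRB, a biliverdin reductase of haem breakdown (rho = 0.75, r = 0.70), and SLC16A5, a carrier of the monocarboxylate transporter family (rho = 0.74, r = 0.67). The most opposed were PRNP, the prion protein gene (rho = -0.73), MITF, a transcription factor (rho = -0.71), and COLGALT2, a collagen galactosyltransferase (rho = -0.67). In the 15 GLY cows alone, the coefficients were 0.75, 0.67 and 0.70 for the first group and -0.73, -0.72 and -0.81 for the second. These cows were part of the ranking that picked the genes, so their coefficients are no independent check. With the group means subtracted, rho over the 31 cows was 0.71, 0.59 and 0.60 for the first group and -0.78, -0.64 and -0.72 for the second. Without the 2 cows with the most extreme TUBB4A, r was 0.75, 0.66 and 0.66 and -0.56, -0.58 and -0.62. TUBB4B ranked 316th. As the extremes of a ranking, these are descriptions without a test. LOXL4 had 150 ± 36.7 counts in CON_HC, 261 ± 98.6 in CON_LC, 177 ± 36.6 in GLY_HC and 173 ± 36.6 in GLY_LC.

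None of the remaining tubulins was called. Of 11 tested, 0 were called by edgeR between GLY_HC and GLY_LC, beside 0.201% of all genes. Of the 11, 0 had an unadjusted p under 0.05, beside 12.5%. The same held in GLY_HC versus CON_HC, GLY_LC versus CON_LC and CON_HC versus CON_LC. Of all genes, 0.0%, 0.0628% and 0.0% were called there, and 2.92%, 5.65% and 5.96% had such a p. The 11 were TUBA1A, TUBA1B, TUBA1D, TUBA8, TUBAL3, TUBB, TUBB1, TUBG1, TUBG2, TUBD1 and TUBE1. The gamma tubulins TUBG1 and TUBG2 nucleate microtubules, and TUBD1 and TUBE1 serve centrioles. TUBAL3 had a log2 fold change of 0.35 (SE 0.19, adjusted p = 0.456 by edgeR) and TUBA1A of -0.54 (SE 0.29, adjusted p = 0.456) in GLY_HC versus GLY_LC. Without cow 912, which had 267 counts of TUBA1A against at most 145 in the other GLY_LC cows, the values were 0.24 and -0.21.

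New tubulin chains are folded by prefoldin and the ring-shaped chaperonin CCT, which also folds actin, and are then paired by the cofactors TBCA to TBCE. Of 21 tested genes of this list, 1 was called between GLY_HC and GLY_LC, CCT2, and 9 (42.9%) had an unadjusted p under 0.05, of which 8 were lower in GLY_HC and 1, TBCD, was higher, beside 7.45% and 5.06% of all genes. The median log2 fold change of the list was -0.13 beside -0.01 over all genes. CCT2, a subunit of the chaperonin, had 1650 ± 176 normalized counts in GLY_HC and 2190 ± 456 in GLY_LC, a log2 fold change of -0.41 (SE 0.10, adjusted p = 0.0994 by edgeR). CCT8, another subunit, had 1520 ± 139 and 1903 ± 308 and a log2 fold change of -0.32 (SE 0.08, adjusted p = 0.109). The groups overlapped for both genes.

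The call of CCT2 was lost without cow 912, and also with GLY_HC cows 154, 32 and 117 left out together (log2 fold change -0.38, adjusted p = 0.372 by edgeR). Without this cow, a choice made for the list after seeing the data, the log2 fold change was -0.32 (adjusted p = 0.379 by edgeR), and 0 of all genes were called. At an unadjusted p under 0.05, 8 of the 21 genes (38.1%) were then lower in GLY_HC and 0 higher, beside 8.37% of all genes, and the median was -0.13. Between CON_HC and CON_LC, 4 of 21 (19.0%) had an unadjusted p under 0.05, all lower in CON_HC, beside 5.96% of all genes in either direction and 3.25% lower. In both glyphosate comparisons 0 of the 21 genes were called by edgeR, with 0 at an unadjusted p under 0.05 in HC, beside 2.92% of all genes, and 1 in LC, beside 5.65%.

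**Figure D5:**
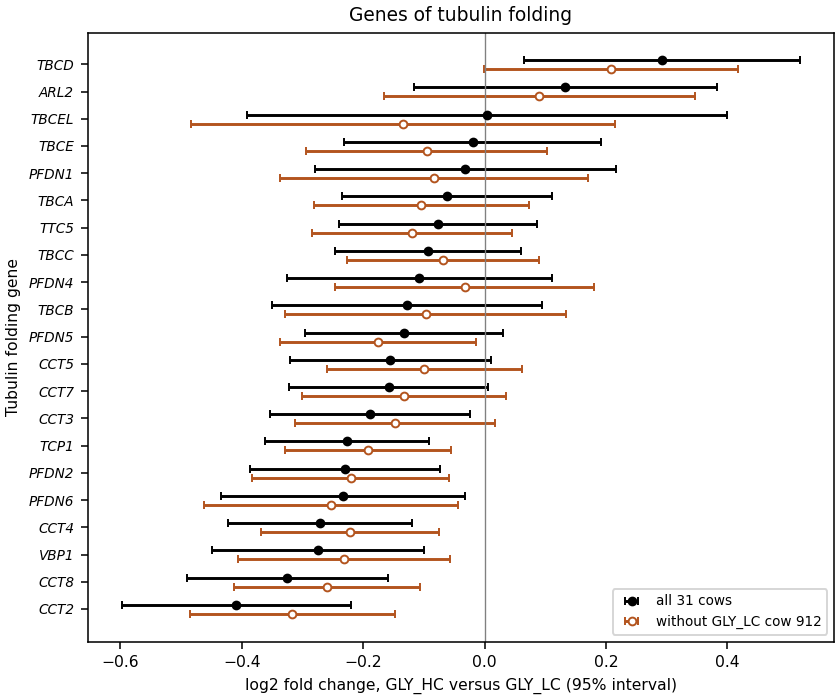
Log2 fold changes of GLY_HC versus GLY_LC (horizontal axis) with 95% intervals for 21 genes of tubulin folding, with all 31 cows (filled) and without GLY_LC cow 912 (open). Most genes lie below 0 in both, CCT2 is lowest at -0.41 and -0.32, and TBCD is highest at 0.29 and 0.21.

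In the other lists of microtubule genes, 0 genes were called by edgeR in GLY_HC versus GLY_LC, beside 0.201% of all genes. The shares with an unadjusted p under 0.05 stood near the 12.5% of all genes or below it. Of 17 enzymes that modify tubulin tails or lysines, 0 had such a p, with AGBL5, which removes glutamate from tails, at -0.25 and SIRT2, a deacetylase, at 0.12 (-0.33 and 0.036 without cow 912). Of 23 microtubule-binding proteins, 3 had one, among them MAP1A at -1.5 and MAP4 at 0.25, and 0 of 23 had one without cow 912, where MAP1A was at -0.52. Of 30 motor genes, 4 had one, among them DCTN6, a dynactin subunit, at -0.22 and DYNLT1, a dynein light chain, at -0.30. Of 19 genes of cell division, which needs a tubulin spindle, 1 had one, MCM2 at 0.49, and CENPF was at 0.94. The list's median was 0.55 in GLY_HC versus GLY_LC and 0.69 in CON_HC versus CON_LC, where 4 of 19 had an unadjusted p under 0.05, all higher in CON_HC beside 2.71% of all genes. With cows 912, 103, 166 and 941 left out together, 0 of 19 had such a p in either comparison, and the medians were 0.46 and 0.44.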

How the data were processed

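Poly(A) RNA libraries were made by the authors with a stranded kit from liver RNA of 31 cows. The authors trimmed reads with Trim Galore (Phred 20, minimum length 30), aligned them with HISAT2 2.1.0 to UMD3.1 (Ensembl release 93), counted uniquely mapped reads with HTSeq 0.8.0 and deposited raw counts of 24616 genes. Whether HTSeq used the strand is not given in the sources used here. A second deposited table of normalized values was not used.

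Counts were normalized by TMM and tested with edgeR 4.0.16 in R 4.3.3 (quasi-likelihood, 4 group means, genes with at least 20 reads over all cows), with Benjamini-Hochberg adjustment over 15916 genes. Genes were called at p under 0.05 and adjusted p under 0.1. Intervals are 95% normal intervals from the standard error. The 8 members were matched by symbol, 8 of 8 also in RefSeq's gene table (ARS-UCD2.0), whose coordinates are of another build and are not printed. Members and lists were chosen with earlier results of these data known. Named genes were the members, the 2 genes of each list with the smallest p in GLY_HC versus GLY_LC, and the 3 most and 3 least like TUBB4A; TBCD, TUBAL3, TUBA1A, TUBA8 and TUBA1D were given values after these had been seen. The steps were tested on simulated counts. Alternatives were other normalizations, filters, DESeq2 1.42.0, group subsets and each cow left out. At 11675775 to 36675542 reads per cow, TUBB3, TUBB2A and TUBB2B rest on few reads.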

Additional observations from a re-analysis of the deposited data

Results flagged for a closer look

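Within each feeding group, the highest or lowest cow was compared with its nearest neighbour by Dixon's ratio. In 32 groups of cows (8 genes in 4 groups), 6 values stood apart. Chance gives about 1 in 20 for independent normal values. These counts share cows and need not be normal, so the 6 are not read against that rate. Of the 6 values, 3 came from GLY_LC cow 912. TUBB4B was at 1673 normalized counts in this cow (next highest in the group 705), TUBB6 at 265 (next 126) and TUBB3 at 11.4 (next 1.07, from 15 reads). Cow 912 had the highest smooth muscle and intestinal epithelium markers, and their part was not tested. TUBA4A stood apart in CON_HC cow 123 at 425 (next 213) and in GLY_HC cow 127 at 395 (next 230). TUBA1C stood apart in CON_LC cow 103 at 467 (next 359), the cow with the highest fibroblast markers.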

How the results depend on the processing

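No member was called in GLY_HC versus GLY_LC, and none of the 7 members tested was called in either glyphosate comparison, under any alternative run, with or without single cows. Numbers of all genes called under alternatives are given below. No paired analysis was possible because the numbers in the labels are animal numbers and no 2 groups share one. The order of isotype levels and its alternatives were not run, since no transcript or coding lengths were at hand.

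Signs near 0 turned when single cows were left out. In GLY_HC versus GLY_LC the log2 fold change of TUBB4A then lay between -0.11 and 0.15 (highest without GLY_LC cow 209), that of TUBB3 between -0.91 and 1.40, TUBB6 between -0.28 and 0.13 and TUBA4A between -0.35 and 0.10 (the highest of these 3 without cow 912). In GLY_HC versus CON_HC, TUBB4B lay between -0.021 and 0.13, TUBB6 between -0.23 and 0.031 and TUBA4A between -0.13 and 0.42. In GLY_LC versus CON_LC, TUBB4B lay between -0.18 and 0.35, TUBB2A between -0.29 and 0.088, TUBB3 between -0.12 and 2.07 and TUBB6 between -0.25 and 0.16. With cows 912, 103, 166 and 941 left out together, a choice made after seeing the data, TUBB3 was 1.39, TUBB6 0.13 and TUBA4A 0.10 in GLY_HC versus GLY_LC, and TUBB4B -0.12, TUBB6 -0.19 and TUBA4A 0.016 in GLY_LC versus CON_LC. With GLY_HC cows 154, 32 and 117 left out together, also chosen after seeing the data, TUBB4B was -0.064 and TUBA1C -0.023 in GLY_HC versus CON_HC. The cause was not tested. The TUBB3 values are fitted values from 38 reads in all and are not read as fold changes.

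The number of all genes called in GLY_HC versus GLY_LC was 32, and it was 66 with RLE normalization, 11 with edgeR's own filter, 8 with a robust fit, 0 with the 2 groups alone, 143 and 89 with DESeq2, 0 to 150 with 1 cow left out, and 0 with either the 4 or the 3 cows left out together. In GLY_LC versus CON_LC it was 10, and 0 to 41 with 1 cow left out, 0 with that filter, the robust fit or the 2 groups alone, 4 and 2 with DESeq2, and 0 with the 4 or the 3 cows left out. In CON_HC versus CON_LC it was 0, and 27 and 80 with DESeq2, 0 to 7 with 1 cow left out (7 without cow 912), and 2 with the 4 or the 3 cows left out. In GLY_HC versus CON_HC it was 0, and 3 with DESeq2 on the 2 groups and 0 to 1 with 1 cow left out.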
